A study of Homo sapiens with 9 samples.

Results

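Replication-dependent histone genes encode the proteins around which DNA is wound. They were taken here by name, as every gene on the array whose symbol begins with H1-, H2AC, H2BC, H3C or H4C, which gave 64 of the 17687 genes measured. There were 9 genes of the linker histone H1, 14 of H2A, 17 of H2B, 9 of H3 and 15 of H4. RefSeq lists 74 protein-coding genes with such symbols, and those without a named row on the array are not analysed here. The family was taken up because H2BC14 was higher in cells with Ad-VDR alone than in control cells. The values of VDR against CONT are therefore a description for the whole family, with no test, and so are the values of H2BC14 in every comparison. The other comparisons share the VDR or the CONT arrays with it, so their values are not independent of that choice.

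HepG2, a human line grown from a liver carcinoma that makes very little VDR of its own, was profiled on 9 Clariom S arrays. The VDR+VitD cultures carried Ad-VDR, an adenovirus with the human VDR cDNA, for 48 h and then received 10 nM VitD (calcitriol, the hormone that activates VDR) for 4 h. The VDR cultures carried Ad-VDR and received the vehicle DMSO for 4 h, and the CONT cultures carried Ad-C, an adenovirus without an insert, and received the same vehicle. The labels number the arrays of each group from E1 to E3 and name 3 independent experiments, and the numbers were read as the experiments, with 1 array of every group in each (n = 3 throughout). All cultures were infected, no group received VitD without Ad-VDR, and 1 cell line was used. In RNA from whole cultures, more cells copying their DNA and more histone mRNA in each cell cannot be told apart.

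The deposited values are log2 intensities, and their medians lay between 6.16 and 6.20 on the 9 arrays. VDR itself read 17.47, 17.58 and 17.45 in VDR+VitD cultures and 17.87, 17.87 and 17.80 in VDR cultures, against 6.79, 6.04 and 6.21 in CONT cultures, so each array carried the receptor level that its label gives. The 8 measured hepatocyte markers, among them ALB and APOA1, lay between percentiles 96.8 and 99.96 of all genes and none was called in any comparison, except that APOA1 was called in VDR+VitD against CONT with the experiment as a block (log2 difference 0.59, adjusted p = 0.0211 with the block and 0.0514 without it). Of the markers of other liver cells, KRT19 of bile duct cells was called, lower by 1.00 in VDR+VitD than in CONT cultures (adjusted p = 9.22e-04, limma), and no marker of stellate, endothelial or blood cells was called. KRT19 was 1 of 4 measured bile duct markers. In VDR+VitD against CONT 2 of the 4 lay above 0, the highest at 0.40, and 2 lay below. The mean of the 4 per array was 11.89 to 12.11 in VDR+VitD, 11.91 to 12.14 in VDR and 12.08 to 12.19 in CONT. The part of KRT19 in the histone values was not tested. Of all genes 4.16%, 4.81% and 0.407% were called in VDR+VitD against VDR, VDR+VitD against CONT and VDR against CONT.

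Histone mRNA of this kind is made mainly while a cell copies its DNA, when new chromatin needs large amounts of histones. H2A, H2B, H3 and H4 form the core of the nucleosome, and H1 binds the DNA that enters and leaves it. The genes stand in clusters, and many H2A and H2B genes share a short stretch of DNA from which they are read in opposite directions. Their mRNA normally ends in a stem-loop in place of a poly(A) tail, and the sources used here do not say how the cDNA for these arrays was primed. The coding sequences of many members are nearly the same, so probes may be shared between them. Probe sequences were not used here, and the values of close copies are uncertain as separate measurements. A few genes with such symbols are not typical members. H1-10 is also made in resting cells, H1-8 belongs to the oocyte, and H1-6, H1-7, H2AC1 and H2BC1 are known from the testis.

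The promoters of H2BC14, H2BC17 and H2AC8 are shown. H2BC14 led to the choice of the family. In VDR+VitD against CONT, H2BC17 was the called member and H2AC8 had the largest difference among the H2A genes. Each is the 250 bases before the RefSeq start of the gene on GRCh38.p14, all on the plus strand: chr6:27814772-27815021 for H2BC14, chr6:27893175-27893424 for H2BC17 and chr6:26216671-26216920 for H2AC8. The capitals mark the octamer motif ATTTGCAT or its reverse complement, a sequence that the factor OCT1 binds in histone H2B promoters.
H2BC14: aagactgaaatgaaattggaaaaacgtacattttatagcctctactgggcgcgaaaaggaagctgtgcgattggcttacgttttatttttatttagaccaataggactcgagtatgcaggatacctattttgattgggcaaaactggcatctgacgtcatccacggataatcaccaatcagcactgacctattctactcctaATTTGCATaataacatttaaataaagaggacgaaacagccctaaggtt
H2BC17: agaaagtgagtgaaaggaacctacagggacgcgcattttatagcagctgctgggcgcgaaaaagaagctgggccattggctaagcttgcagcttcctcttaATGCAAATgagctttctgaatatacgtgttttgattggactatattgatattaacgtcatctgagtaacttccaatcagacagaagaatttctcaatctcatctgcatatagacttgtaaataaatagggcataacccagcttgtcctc
H2AC8: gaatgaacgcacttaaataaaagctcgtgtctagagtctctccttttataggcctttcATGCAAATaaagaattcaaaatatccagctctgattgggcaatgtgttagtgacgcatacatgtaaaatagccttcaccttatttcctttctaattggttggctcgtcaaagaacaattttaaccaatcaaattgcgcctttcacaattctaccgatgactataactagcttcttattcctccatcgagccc
In all 3 promoters the gene's start lies to the right of the last base. H2BC14 carries the motif near its start, while H2BC17 and H2AC8 carry the reverse complement farther from it. The H2AC8 window is also the promoter of H2BC8, which is read the other way from a start 233 bases off. The marked motif lies nearer to the H2BC8 start and reads ATTTGCAT in that direction.

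RefSeq promoters were found for 60 of the 64 genes, all but H2AC12, H3C11, H4C1 and H4C3, and were searched on both strands over the same 250 bases. ATTTGCAT was present in 22 of the 60 (36.7%), against 1.66% of 27305 promoters in all. It was found in 14 of 17 H2B and 8 of 13 H2A promoters, and in none of the H1, H3 or H4 promoters. CCAAT, the letters that NF-Y binds, stood in 81.7% of the histone promoters and in 33% of all promoters. TATAAA, a form of the TATA box, stood in 66.7% of the histone promoters and in 11.1% of all promoters. AGGTCA, the half-site of many nuclear receptors, stood in 7 of the 60 (11.7%), among them H2BC14, against 12.1% of all promoters. The DR3 element, a direct repeat of such half-sites with 3 bases between them and some letters left free, was found in none of the 60 and in 0.0659% of all promoters. Matches were counted for each motif on its own, whether or not they overlapped. An H2A and an H2B gene that share a promoter have windows over nearly the same bases, so the same match can count for both. A match of letters is a description of the window and not a measured binding site.

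Across the 9 arrays, 39 members lay at or above the median level of all genes and 25 under it. The family included some of the brightest rows of the array: H1-4 lay at percentile 99.7, H2AC14 at 99.6, H4C3 at 99.5 and H2BC12 at 99.3 of all genes. At the other end, H4C13 and H2BC26 lay at percentiles 4.2 and 6.8. Brightness depends on the probes, so the order of the members is not an order of mRNA amounts.

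**Figure D1:**
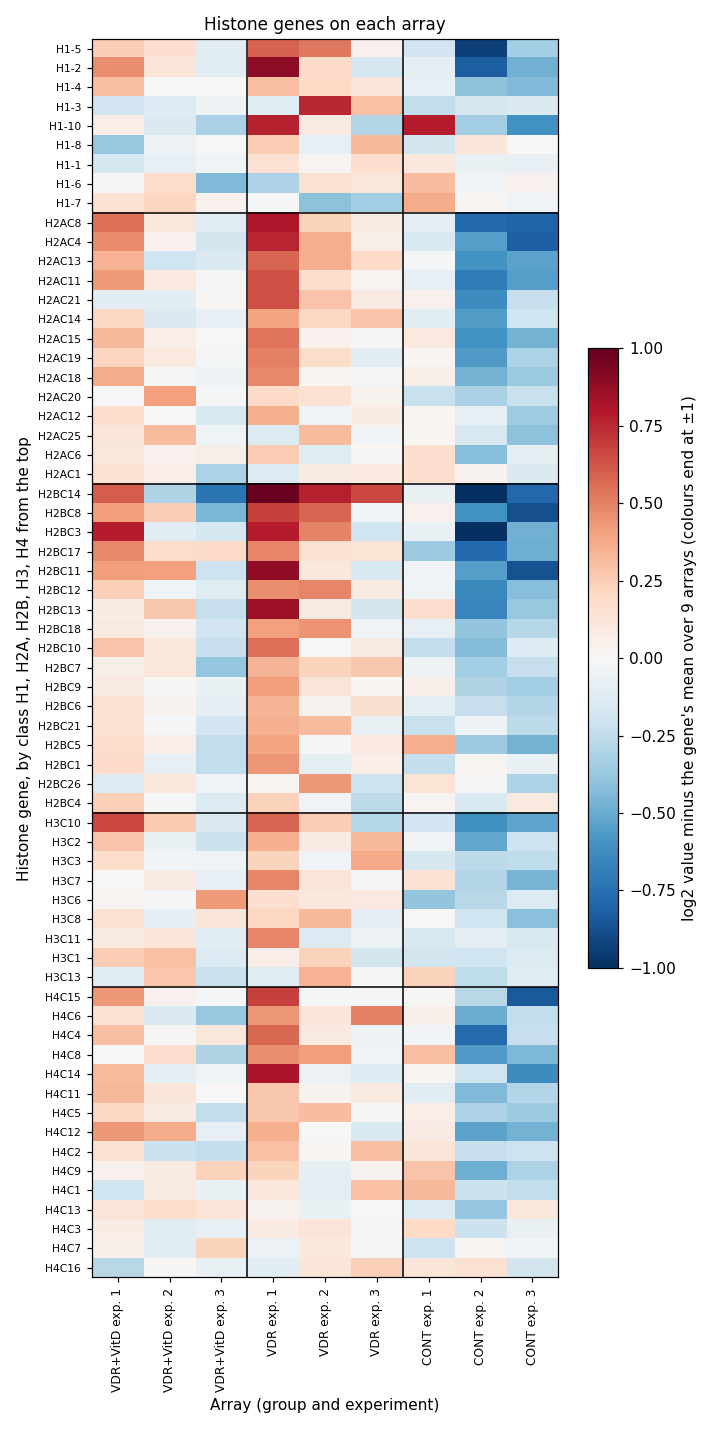
Log2 value of each of the 64 histone genes on each array minus the gene's mean over the 9 arrays, with the arrays grouped as VDR+VitD, VDR and CONT and the genes grouped by class. The median of the members on an array was 0.17, 0.05 and −0.09 in VDR+VitD, 0.38, 0.13 and 0.02 in VDR, and −0.01, −0.35 and −0.30 in CONT (experiments 1, 2 and 3).

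The comparison of VDR+VitD with VDR addresses the response to 4 h of VitD in cells that carry the receptor. The histone genes lay slightly lower with VitD. The median log2 difference of the 64 members was −0.15, beside −0.02 for all genes, and 50 members lay below 0 and 14 above. Within experiments 1, 2 and 3 the median was −0.20, −0.08 and −0.10. No member was called, which took both a fold-change over 1.5 and an adjusted p under 0.05 in limma, where 4.16% of all genes were. Among the 63 members other than H2BC14, an unadjusted p under 0.05 was reached by 5, beside 15.1% of all genes: H1-3, H2AC21, H2BC7 and H4C6 lower and H1-7 higher. Lower values in 3 of 3 experiments were found for 26 members, beside 19.3% of all genes, and higher values in 3 of 3 for 6 members, beside 15.2%. The arrays of the groups did not overlap for 4 members that were lower (H1-1, H2AC21, H2BC7 and H2BC14, beside 9.7% of all genes) and for 2 that were higher (H1-7 and H4C13, beside 8.66%). With the experiment as a block 1.78% of all genes were called lower, and H2BC14 alone of the family met the rule. Its high VDR arrays led to the choice of the family, so this is a description and no test.

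The size of this difference moved when single arrays were left out. Leaving out 1 array makes its experiment incomplete, and this fit has no block. The level of that experiment then enters the difference, here and where single arrays are left out below. How far it did so was not tested. Without the VDR array of experiment 1 the median was −0.048 and 1 member, H1-3, was called lower, where 3.78% of all genes were called. Without the VDR+VitD array of experiment 3 the median was −0.067.

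The comparison of VDR+VitD with CONT addresses Ad-VDR and VitD together. Its CONT arrays also served the choice of the family, so its counts and p-values are not independent of that choice. Here most histone genes lay higher, and H2BC17, which encodes an H2B protein, rose 1.77-fold (adjusted p = 0.00386, limma). It was the 1 member called of 64, where 4.81% of all genes were called and 2.69% were called higher. The median log2 difference of the members was 0.27, beside −0.01 for all genes, with 56 members above 0 and 8 below, and it was 0.24, 0.44 and 0.22 within experiments 1, 2 and 3. An unadjusted p under 0.05 was reached by 19 members, beside 16.6% of all genes. Higher values in 3 of 3 experiments were found for 37 members, beside 17.6% of all genes, and lower values in 3 of 3 for 1 member, H1-8, beside 20.3%. The arrays of the groups did not overlap for 11 members, all higher, beside 10.1% of all genes. Without the CONT array of experiment 2 the median of the members was 0.18.

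With the experiment as a block, which takes out the level that cultures of 1 experiment share, 7 members were called higher, beside 2.87% of all genes: H1-2, H2AC4, H2AC8, H2AC11, H2BC11, H2BC17 and H3C10. The adjusted p-values in this blocked fit were 0.00214 for H2AC8, 0.00974 for H3C10 and 0.032 for H1-2. The 8 members below 0 lay between −0.19 and −0.01: H1-1, H1-6, H1-8, H1-10, H2AC1, H4C1, H4C3 and H4C16. Of the less typical members, H1-7 (0.02) and H2BC1 (0.05) lay above 0. With all arrays of experiment 2 left out no member was called, beside 3.18% of all genes. Without the CONT array of experiment 1 there were 4, beside 4.26%, and without the VDR+VitD array of experiment 3 there were 2, beside 4.53%.

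VDR against CONT addresses the receptor without added hormone. This comparison was used to choose the family, so its counts stand as a description from which nothing is read. The median difference of the members was 0.41, beside 0.00 for all genes, with 60 members above 0 and 4 below, and it was 0.39, 0.48 and 0.36 within experiments 1, 2 and 3. The call rule was met by 2 members, H2BC14 and H2BC17, both higher, where 0.407% of all genes were called and 0.102% were called higher, and with the experiment as a block by 11, where 0.249% were. The 9 others were H1-2, H1-5, H2AC4, H2AC8, H2AC11, H2AC13, H2BC8, H2BC11 and H2BC12. Higher values in 3 of 3 experiments were found for 47 members, beside 16% of all genes, and non-overlapping arrays for 22 members, beside 6.61%. The 4 members below 0 were H1-6, H1-7, H2AC1 and H2BC4. Without H2BC14 the median of the others was 0.40. All 3 comparisons share arrays with each other: VDR+VitD against VDR uses the same VDR arrays, and VDR+VitD against CONT the same CONT arrays.

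The medians of the brighter members lay farther from 0. The 39 at or above the median level of all genes had medians of −0.16 for VDR+VitD against VDR, 0.38 for VDR+VitD against CONT and 0.51 for VDR against CONT. The 25 dimmer members had −0.08, 0.10 and 0.23. Values near the background or near the top of the scale can compress differences. Whether this shaped these medians was not tested.

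**Figure D2:**
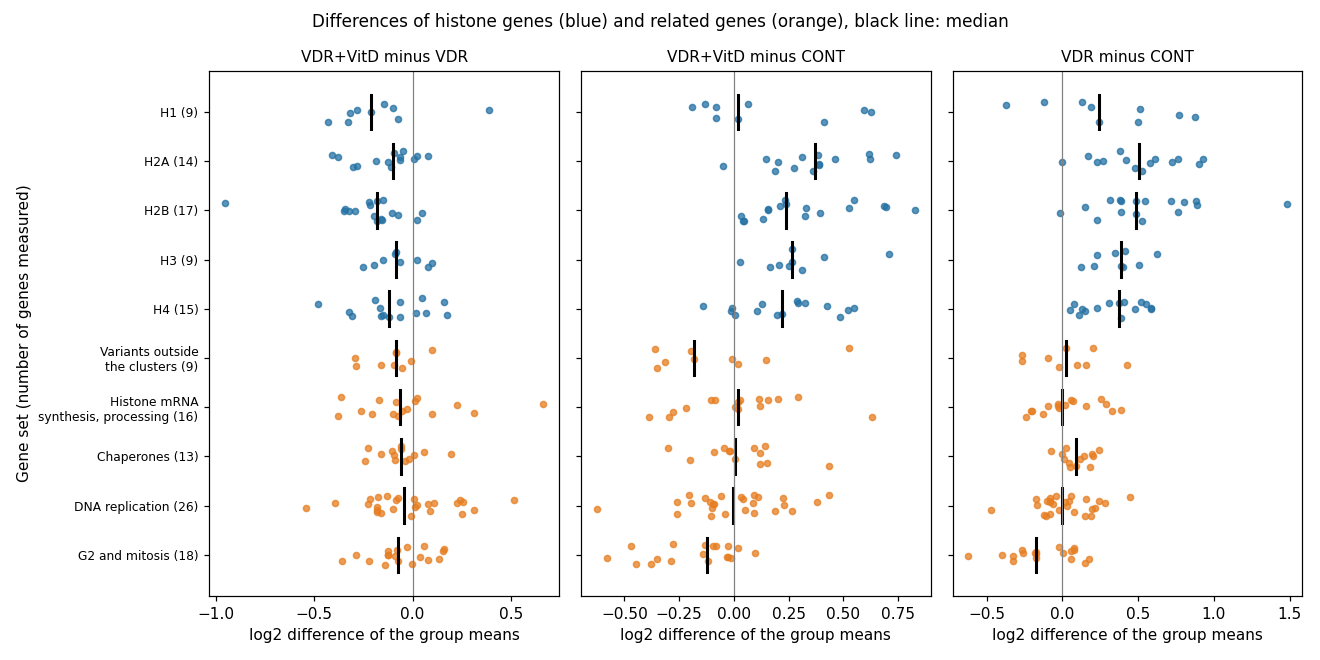
Log2 difference of the group means for each gene (points) in the 3 comparisons, by histone class (blue) and by list of related genes (orange), with the median of each set as a black line. The class medians of VDR against CONT lie between 0.24 (H1) and 0.50 (H2A). The family was chosen on VDR against CONT, so these medians are a description and are not set against those of the lists.

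Among the 17 H2B genes, whose protein pairs with H2A, the median difference was −0.18 for VDR+VitD against VDR, 0.24 for VDR+VitD against CONT and 0.48 for VDR against CONT. H2BC14 read 13.78, 12.87 and 12.44 in VDR+VitD cultures and 14.16, 13.95 and 13.84 in VDR cultures, against 13.10, 12.02 and 12.39 in CONT cultures (experiments 1, 2 and 3). All 3 VDR arrays lay above every other array, and the VDR+VitD and CONT arrays overlapped. The group means were 13.03 ± 0.68, 13.98 ± 0.16 and 12.50 ± 0.55 in VDR+VitD, VDR and CONT (SD), so that VDR lay 1.48 above CONT (2.79-fold) and VDR+VitD lay 0.95 below VDR and 0.53 above CONT on the log2 scale. The difference of VDR+VitD from VDR was −0.38, −1.08 and −1.40 within experiments 1, 2 and 3.

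H2BC17 had another pattern. It read 6.20, 5.90 and 5.91 in VDR+VitD and 6.21, 5.87 and 5.86 in VDR, against 5.36, 4.94 and 5.23 in CONT. Both groups with Ad-VDR lay above all CONT arrays, and they overlapped each other. The log2 difference was 0.02 ± 0.15 (SE) for VDR+VitD against VDR (95% confidence interval −0.31 to 0.35) and 0.83 ± 0.15 for VDR+VitD against CONT (0.50 to 1.16). VDR lay 0.80 above CONT. H2BC17 is a dim row, at percentile 42.7 of all genes.

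The brightest H2B gene, H2BC12, read 15.89, 15.61 and 15.53 in VDR+VitD and 16.12, 16.14 and 15.74 in VDR, against 15.61, 15.01 and 15.23 in CONT. Its difference was −0.32 ± 0.17 for VDR+VitD against VDR (adjusted p = 0.425) and 0.39 ± 0.17 for VDR+VitD against CONT (adjusted p = 0.265), and neither passed the test. The VDR arrays lay above all CONT arrays. H2BC26, the dimmest of the class, stayed between 3.33 and 4.08 on the 9 arrays, with all groups overlapping.

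**Figure D3:**
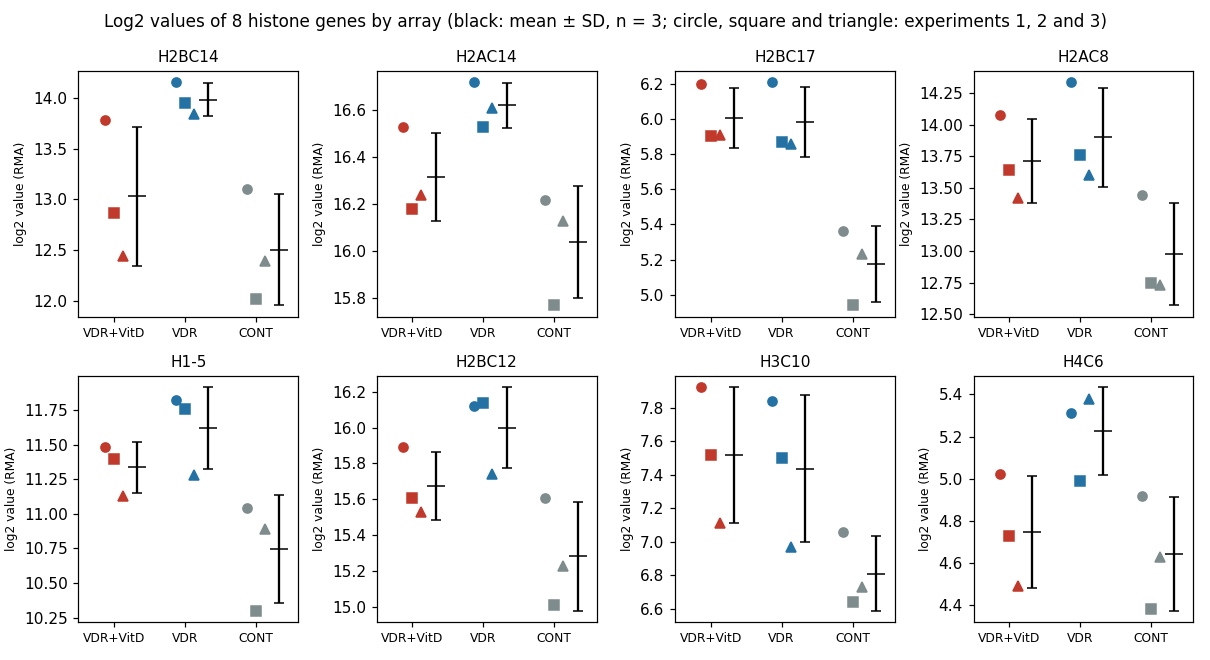
Log2 value of 8 histone genes on each array in VDR+VitD (red), VDR (blue) and CONT (grey), with circles, squares and triangles for experiments 1, 2 and 3 and the group mean ± SD (n = 3) in black. In H2BC14 the 3 VDR arrays (13.84 to 14.16) lie above all others, and in H2BC17 the VDR+VitD and VDR arrays (5.86 to 6.21) lie above the CONT arrays (4.94 to 5.36). Each panel has its own axis, which does not start at 0.

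The 14 H2A genes had median differences of −0.10, 0.37 and 0.50 for VDR+VitD against VDR, VDR+VitD against CONT and VDR against CONT. H2AC8 read 14.08, 13.64 and 13.42 in VDR+VitD and 14.34, 13.76 and 13.60 in VDR, against 13.44, 12.75 and 12.73 in CONT. The difference of VDR+VitD from CONT was 0.74 ± 0.23 (1.67-fold, adjusted p = 0.0842) and did not pass the test, while it did with the experiment as a block. Every experiment gave the same order of the 3 groups, with VDR highest and CONT lowest. H2AC14, the brightest H2A row, read 16.53, 16.18 and 16.24 in VDR+VitD and 16.72, 16.53 and 16.61 in VDR, against 16.22, 15.77 and 16.13 in CONT. Its difference was −0.30 ± 0.15 for VDR+VitD against VDR (adjusted p = 0.373) and 0.28 ± 0.15 for VDR+VitD against CONT (adjusted p = 0.393).

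H2AC21 had the largest difference of its class between VDR+VitD and VDR. It read 9.98, 9.97 and 10.10 in VDR+VitD and 10.73, 10.37 and 10.18 in VDR, against 10.13, 9.46 and 9.86 in CONT. The VDR+VitD arrays lay below all VDR arrays, by 0.41 ± 0.18 on average, which did not pass the test (adjusted p = 0.281). H2AC1, a gene of the testis, showed differences of −0.05, −0.05 and 0.00 in the 3 comparisons.

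Of the 9 H3 genes, whose protein carries many of the marked residues of chromatin, the medians were −0.08, 0.27 and 0.39 in the same order of comparisons. H3C10 read 7.92, 7.52 and 7.11 in VDR+VitD and 7.84, 7.50 and 6.97 in VDR, against 7.06, 6.64 and 6.73 in CONT. VDR+VitD lay 0.08, 0.02 and 0.14 above VDR within the experiments, and the VDR+VitD arrays lay above all CONT arrays, by 0.71 ± 0.23 (adjusted p = 0.0946). H3C2, the brightest H3 row, read 13.79, 13.44 and 13.29 in VDR+VitD and 13.86, 13.59 and 13.83 in VDR, against 13.47, 12.99 and 13.30 in CONT. Its VDR+VitD arrays overlapped both other groups. H3C1, the dimmest, lay between 3.87 and 4.36.

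The 15 H4 genes, most of which encode the same protein sequence, had medians of −0.12, 0.22 and 0.38. H4C6 read 5.02, 4.73 and 4.49 in VDR+VitD and 5.31, 4.99 and 5.38 in VDR, against 4.92, 4.38 and 4.63 in CONT. Its difference of −0.48 ± 0.18 between VDR+VitD and VDR did not pass the test (adjusted p = 0.171). H4C12 read 10.46, 10.40 and 9.94 in VDR+VitD and 10.38, 10.03 and 9.87 in VDR, against 10.11, 9.49 and 9.55 in CONT, and VDR+VitD lay 0.55 ± 0.20 above CONT (adjusted p = 0.14). H4C6 thus lay lower and H4C12 higher in VDR+VitD than in VDR in all 3 experiments. H4C15, which had the same difference of VDR from CONT as H4C6 (0.58), read 8.28, 7.89 and 7.83 in VDR+VitD and 8.53, 7.83 and 7.83 in VDR, against 7.86, 7.57 and 7.01 in CONT. The brightest H4 row, H4C3, read 16.12, 15.92 and 15.96 in VDR+VitD and 16.13, 16.17 and 16.06 in VDR, against 16.24, 15.83 and 15.97 in CONT. Its groups overlapped, and its differences were −0.12, −0.01 and 0.11. The dimmest, H4C13, lay between 3.11 and 3.68.

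The 9 linker histones had medians of −0.21, 0.02 and 0.24, and 4 of them lay below 0 in VDR+VitD against CONT. H1-2, H1-4 and H1-5 lay above CONT on average in both groups with Ad-VDR. H1-5 read 11.48, 11.40 and 11.13 in VDR+VitD and 11.82, 11.76 and 11.28 in VDR, against 11.04, 10.30 and 10.89 in CONT, and VDR+VitD lay 0.59 ± 0.20 above CONT with no overlap of the arrays (adjusted p = 0.11). H1-4 read 16.77, 16.48 and 16.48 in VDR+VitD and 16.77, 16.67 and 16.59 in VDR, against 16.39, 16.07 and 16.03 in CONT, again without overlap between VDR+VitD and CONT. H1-2 read 11.06, 10.72 and 10.48 in VDR+VitD and 11.49, 10.78 and 10.42 in VDR, against 10.50, 9.77 and 10.11 in CONT. The difference of VDR+VitD from CONT was 0.63 ± 0.25 (adjusted p = 0.199) and passed the test with the experiment as a block.

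The other linker histones varied. H1-1 lay 0.08 below CONT in VDR+VitD and 0.13 above it in VDR, with overlapping arrays in both cases. H1-3 lay 0.07 above CONT in VDR+VitD and 0.50 above it in VDR. It read 5.88, 5.94 and 6.02 in VDR+VitD and 5.95, 6.82 and 6.36 in VDR, against 5.82, 5.90 and 5.92 in CONT. The VDR arrays lay above all CONT arrays, and the VDR+VitD arrays overlapped CONT. H1-10 read 7.13, 6.92 and 6.74 in VDR+VitD and 7.84, 7.16 and 6.77 in VDR, against 7.85, 6.73 and 6.46 in CONT. Experiment 1 was its highest array in every group, and the groups overlapped. H1-7, chosen for mention after its values were seen, read 4.38, 4.44 and 4.27 in VDR+VitD and 4.22, 3.82 and 3.89 in VDR, against 4.60, 4.25 and 4.19 in CONT. It was the member with the largest positive difference between VDR+VitD and VDR (0.39 ± 0.15, adjusted p = 0.212). The oocyte gene H1-8 lay between 3.49 and 4.20 with overlapping groups.

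In 8 cases an H2B and an H2A gene of the family start within 215 to 248 bases of each other and are read in opposite directions, so that a promoter is shared. H2BC14 and H2AC14, whose starts are 245 bases apart, differed in size: VDR lay 1.48 above CONT in H2BC14 and 0.58 in H2AC14, and VDR+VitD lay 0.95 below VDR in H2BC14 and 0.30 in H2AC14. H2BC8 and H2AC8 were closer, with 0.89 and 0.93 for VDR against CONT and 0.55 and 0.74 for VDR+VitD against CONT. H2BC11 and H2AC11 gave 0.77 and 0.73 for VDR against CONT and 0.69 and 0.62 for VDR+VitD against CONT. In the pair H2BC4 and H2AC6 both genes stayed near 0, with −0.02 and 0.17 for VDR against CONT and 0.03 and 0.19 for VDR+VitD against CONT. Of the 8 pairs, the H2B gene had the larger difference of VDR from CONT in 3. The probes of H2AC14 read near the top of the scale, where differences can be compressed. Whether they were was not tested, and a test of H2BC14 against H2AC14 was not made.

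H2A and H2B genes with and without the octamer motif were set side by side. The 22 with it had medians of −0.18 for VDR+VitD against VDR, 0.30 for VDR+VitD against CONT and 0.55 for VDR against CONT, and the 8 without it had −0.10, 0.34 and 0.45. The difference between these sets was not tested. Partners in a shared promoter fell into the same set, so the genes of a set are not all separate promoters. The 11 members on chromosome 1 had medians of −0.09, 0.31 and 0.42, and the 49 on chromosome 6 had −0.15, 0.28 and 0.42. H1-8 and H1-10 on chromosome 3 and H1-7 and H4C16 on chromosome 12 lie outside these clusters. H4C16 differed by −0.19, −0.14 and 0.05.

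The experiment moved the histone genes within every group. The highest of the 3 arrays was that of experiment 1 for 42 members in VDR+VitD, 44 in VDR and 51 in CONT, where it was for 32.8%, 30.1% and 32.2% of all genes. For H2AC8, H2AC11 and H2BC8, experiment 1 lay highest in every group. The within-experiment medians given above keep their sign in all 3 experiments in each comparison. How far the culture state of each experiment shaped these values was not tested.

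**Figure D4:**
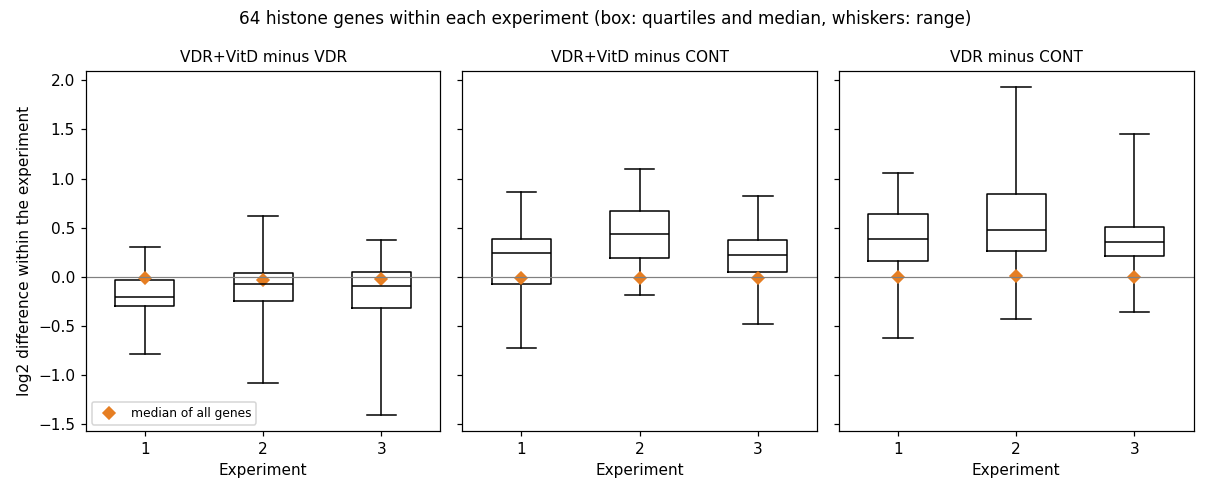
Log2 difference of the 64 histone genes within experiments 1, 2 and 3 in the 3 comparisons, as boxes of the quartiles with the median and whiskers over the whole range, with the median of all genes as an orange diamond. The medians lie at −0.20, −0.08 and −0.10 for VDR+VitD against VDR, at 0.24, 0.44 and 0.22 for VDR+VitD against CONT, and at 0.39, 0.48 and 0.36 for VDR against CONT.

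In both comparisons of VDR+VitD the medians of genes that work with histone synthesis lay nearer to 0 than those of the family. The family was chosen on VDR against CONT, so it is not set against these lists there. Arrays are shared with that comparison, so the rest is a description too. Of all genes 4.16%, 4.81% and 0.407% were called in VDR+VitD against VDR, VDR+VitD against CONT and VDR against CONT. At these shares a list as short as those below can hold no call without differing from all genes. Of 26 measured genes of DNA replication none was called in any comparison, and the medians were −0.04, 0.00 and 0.00. MCM3, part of the replicative helicase, had the lowest p of this list in both comparisons of VDR+VitD, with −0.54 against VDR (adjusted p = 0.143) and −0.63 against CONT (adjusted p = 0.0713). PRIM1, a subunit of primase, had it in VDR against CONT (0.45, adjusted p = 0.351). Of 18 genes of G2 and mitosis none was called, with medians of −0.08, −0.13 and −0.17. In VDR+VitD against CONT 16 of them lay below 0 and 2 above. There 10 were lower in 3 of 3 experiments, beside 20.3% of all genes, and 1 was higher, beside 17.6%. BUB1, a kinase of the spindle checkpoint, read 9.80, 9.91 and 9.93 in VDR+VitD and 9.74, 9.77 and 10.01 in VDR, against 10.50, 10.47 and 10.41 in CONT. The difference of VDR+VitD from CONT was −0.58 (adjusted p = 0.0114), short of the fold-change asked for. AURKA, named after its values were seen, also fell short of it, with −0.47 in the same comparison (adjusted p = 0.0438, limma). With the experiment as a block BUB1 was the 1 gene of this list called in VDR against CONT (lower by 0.62).

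Among 16 genes of histone transcription and 3′ end processing, 1 was called, UPF1, in both comparisons of VDR+VitD. There 4.16% (against VDR) and 4.81% (against CONT) of all genes were called. Whether UPF1 bears on the histone values was not tested. UPF1 is an RNA helicase that takes part in the decay of histone mRNA when DNA synthesis stops. It read 9.62, 9.45 and 9.77 in VDR+VitD and 9.02, 9.14 and 8.69 in VDR, against 9.00, 8.93 and 9.01 in CONT. It rose by 0.66 ± 0.14 in VDR+VitD against VDR (adjusted p = 0.0129) and by 0.63 ± 0.14 against CONT (adjusted p = 0.0156), without overlap of the arrays. The medians of this list were −0.06, 0.02 and 0.00, and its lowest p in VDR against CONT was that of CCNE1, a cyclin of S phase entry (0.39, adjusted p = 0.462). None of 13 histone chaperones was called, with medians of −0.06, 0.00 and 0.09. The members with the lowest p were DAXX (−0.23), ASF1A (0.44) and NASP (0.20) in VDR+VitD against VDR, VDR+VitD against CONT and VDR against CONT.

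Of 9 histone genes outside the clusters, which encode variant histones, none was called, and the medians were −0.09, −0.18 and 0.02. CENPA, the H3 form of centromeres, had the lowest p in VDR+VitD against VDR (−0.29, adjusted p = 0.414). MACROH2A1, a large H2A variant, read 12.37, 12.29 and 12.51 in VDR+VitD and 12.28, 12.09 and 12.50 in VDR, against 11.91, 11.62 and 12.06 in CONT, and lay 0.53 above CONT with VitD (adjusted p = 0.0586).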

How the data were processed

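The authors deposited log2 values for 21448 transcript clusters, made by RMA, which corrects the background, normalizes by quantiles and summarises the probes of a cluster, in Transcriptome Analysis Console 4.0.2 (named in the submitters' processing notes). The values carry 2 decimals. Quantile normalization hides a shift of most genes in 1 direction. The build behind the array annotation was not given in the sources used here. The annotation named 17709 clusters with 1 symbol, none with several, and left 3739 unnamed. Several clusters of a gene (20 genes) were averaged, and each histone gene had 1 cluster. Precision is limited by the number of arrays.

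The 3 comparisons were fitted together with limma 3.58.1 in R 4.3.3 (lmFit, eBayes) on all 9 arrays, with Benjamini-Hochberg adjustment over 17687 genes. Calls needed a fold-change over 1.5 and an adjusted p under 0.05. Differences are given with their SE, group means with their SD, and the scripts were tested on simulated data. The histone genes, the lists of related genes and the alternatives were chosen with earlier results of these data known. Genes named are the called members, those with the highest and lowest mean and the largest difference of each class, H2BC14 and H1-10, and in each list the called gene or that with the lowest p. Others were named after their values were seen, as members of small counts, of blocked calls or of promoter pairs.

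The titles number the arrays of each group E1 to E3 and the series' design text names 3 independent experiments, so same-numbered arrays were taken as 1 experiment. A shared day or batch is not stated. Deviations from the group means correlated across all genes with r of 0.042 to 0.145 (median 0.094) in the 9 pairs that share an experiment and of −0.096 to 0.010 (median −0.055) in 18 pairs that do not. The fit without this block came first because the study's methods name none, and the blocked value is given where it changes a call. Promoters were taken from RefSeq (GRCh38.p14).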

Additional observations from a re-analysis of the deposited data

How the results depend on the processing

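No result changed direction under any alternative run. In brackets is the share of all genes called under the same setting. For VDR+VitD against VDR, where no histone gene was called (4.16%), the call rule was met by 1, H2BC14, with the replicate block (4.56%), among the 8000 genes with the largest interquartile range (10.4%, 43 members tested), with a variance prior that follows intensity (4.35%), and with experiment 1 left out (2.6%), a setting chosen after seeing the data like the other experiments left out. H2BC14 led to the choice of the family, so these are descriptions and no test. Leaving out single arrays gave 0 to 1 (3.52% to 4.1%), which was H2BC14 without the VDR+VitD array of experiment 1 and H1-3 without the VDR array of experiment 1, and medians of −0.21 to −0.048. For VDR+VitD against CONT, with 1 call (4.81%), the replicate block gave 7 (5.18%), the interquartile range filter 7 (11.9%, 43 members), the intensity prior 3 (5%), the filter on level 0 (8.79%, 39 members without H2BC17), the test against a fold-change of 1.5 (treat) 0 (1.17%), and leaving out experiment 1 or 2 gave 2 (2.67%) or 0 (3.18%). Leaving out single arrays gave 1 to 4 (4.14% to 4.86%). For VDR against CONT, a description with 2 members past the rule (0.407%), the replicate block gave 11 (0.792%), the interquartile range filter 8 (1.76%), the intensity prior 8 (0.803%), the 6 compared arrays alone 1 (0.277%), treat 0 (0.0622%), leaving out experiments 1, 2 and 3 gave 1 (0.0905%), 0 (0.119%) and 0 (0.136%), and the list without H2BC14 had 1. Leaving out single arrays gave 0 to 2 (0.153% to 0.39%) and medians of 0.32 to 0.54, and the median was 0.48 with the interquartile range filter and 0.51 with the filter on level, which both test fewer genes. The causes of the other changes were not tested. Apart from the calls named above and in the results (histone genes, APOA1 and BUB1), the block changed no call of a named gene. Of 513 values of named genes under alternatives, 443 kept direction and side of the threshold, 46 passed it newly and 24 lost it. H2BC17 against CONT in VDR+VitD was called in 17 of 19 settings. Rows near the background, such as H4C13, and rows near the top of the scale, such as H1-4, limit what a difference can show.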
